A study of Mus musculus with 4 samples.

Results

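The mouse genome carries 4 places where genes for different Wnt ligands lie next to each other, and the 8 genes of these pairs are described here in mouse embryonic stem (ES) cells with and without the homeodomain transcription factor Prep1. The pairs are Wnt3 with Wnt9b, Wnt3a with Wnt9a, Wnt6 with Wnt10a, and Wnt1 with Wnt10b. The genes were taken by symbol, and all 8 were among the 22718 genes of the RNA-seq tables. The question was whether the genes of a pair share their level and their change in the mutant cells.

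Wnt ligands are secreted, lipid-modified glycoproteins. They bind Frizzled receptors together with Lrp5 or Lrp6, which keeps β-catenin from being degraded and lets it act with Tcf/Lef factors on target genes. Several Wnt genes still lie beside a relative from another subfamily, an arrangement that is older than the vertebrates, so that Wnt3 and Wnt3a, Wnt9a and Wnt9b, or Wnt10a and Wnt10b are closer to each other in sequence than to their neighbours on the chromosome. In ES cells and in the early embryo, Wnt signalling supports self-renewal and, through Wnt3 in particular, formation of the primitive streak.

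The RNA came from 1 wild type (WT) ES cell line and 1 line labelled Prep1-/- (KO2), both given as C57BL/6 and both grown on gelatin with serum and leukemia inhibitory factor. PolyA RNA of each genotype was sequenced as 1 library, so genotype, line and library cannot be told apart and no difference below has a replicate check. A Prep1 ChIP-seq peak list from wild type cells was also used, for which the labels give the strain as C57BL/6 while the protocol names R1 ES cells. Reads assigned to genes summed to 29596294 in the wild type and 25717811 in the Prep1-/- library. Both sums exceed the read number per sample that the paper states, with no reason given there. The counts may thus not be independent fragments, and intervals drawn from them may be too narrow. Pknox1, the gene for Prep1, had 505 wild type reads and 332 in the other library, which is labelled Prep1-/-. Its level there was 0.736 of the wild type level (95% counting interval 0.638 to 0.846), so the label does not rest on a loss of these reads. For the KO2 line, the paper reports by immunoblot that the Prep1 protein was lost. Pou5f1 and other pluripotency genes were present in both libraries, and 8 of 8 genes of that marker list had at least 20 reads.

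Levels are given as RPKM, the reads scaled by gene length and library size that the authors deposited, and the KO/WT ratio is the RPKM in the library labelled Prep1-/- divided by that in the wild type. The interval beside a ratio is an exact binomial interval (Clopper-Pearson) at 95%, and covers the counting of reads only, since reads are not independent molecules and the spread between cultures is unknown. A gene was called lower with a ratio under 0.7 and higher with a ratio over 1.5, given at least 20 reads in both libraries together. Of 15588 genes with that many reads, 2363 (15.2%) were lower and 1090 (6.99%) were higher.

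All 7 paired Wnt genes with at least 20 reads were lower in the library labelled Prep1-/-, and none was higher. The eighth, Wnt1, had 6 reads in all and received no call. The 7 ratios ran from 0.254 to 0.664 with a median of 0.322, compared with a median of 0.947 over all 15588 genes, and each of the 7 counting intervals lay below 1, as did those of 36% of all genes. Low counts scatter more, so the share was also taken over the 9832 genes with at least 20 and fewer than 2000 reads, of which 2043 (20.8%) were lower. The summed level of the 8 genes was 20.8 RPKM in the wild type and 8.38 RPKM in the library labelled Prep1-/-.

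**Figure D1:**
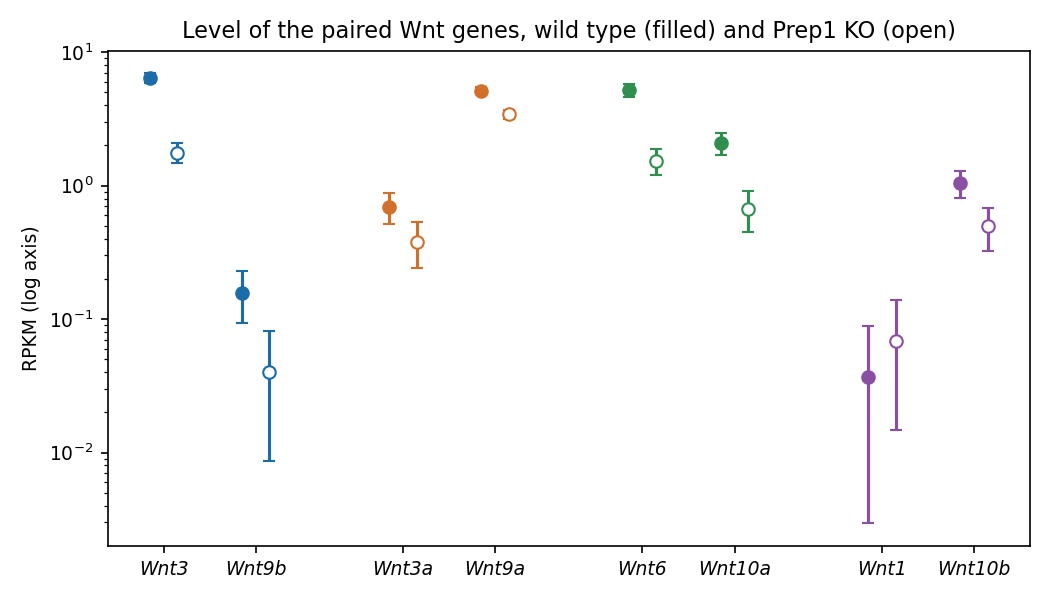
Level of each paired Wnt gene in RPKM on a log axis, with the wild type library as filled points, the library labelled Prep1-/- as open points, 1 colour for each pair and exact 95% counting intervals. The 7 genes other than Wnt1 have the open point below the filled one, and the genes of a pair sit at different heights, from 40.9-fold apart in the wild type for Wnt3 and Wnt9b to 2.51-fold for Wnt6 and Wnt10a.

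Wnt3, the ligand that the mouse embryo needs to form a primitive streak, lies on the plus strand of chromosome 11 (chr11:103635464-103679271, mm9), and Wnt9b, which acts in kidney tubule formation, lies on the minus strand (chr11:103588678-103611135). Transcription of the genes runs away from the space between them, and their start sites are 24329 bp apart. Wnt3 had 583 wild type reads (6.42 RPKM) and, in the library labelled Prep1-/-, 143 reads (1.77 RPKM), giving a ratio of 0.276 (0.227 to 0.330). Wnt9b had 21 and 4 reads, or 0.157 and 0.0399 RPKM, a ratio of 0.254 (0.0532 to 0.631). Both genes were thus lower, while Wnt9b was close to the limit of detection in either library. Wnt3 held 97.6% of the RPKM of the pair in the wild type and 97.8% in the library labelled Prep1-/-.

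The Prep1 ChIP-seq list has a peak over the start of Wnt3, which is why this promoter is printed. The peak (chr11:103634830-103635811) has a fold enrichment of 63 over input, which 77.9% of the 3902 peaks do not exceed, and its centre is at -144 bp from the start of Wnt3 and 24.2 kb upstream of the start of Wnt9b. The 250 bases before the Wnt3 start, chr11:103635214-103635463 on the plus strand of mm9, are shown with matches to the Prep1 decamer in capitals. Prep1 binds DNA together with Pbx, and the strict form of their site was searched as TGANTGACA followed by G, the loose form as TGANTG followed by any base, C, any base and G.
Wnt3 promoter: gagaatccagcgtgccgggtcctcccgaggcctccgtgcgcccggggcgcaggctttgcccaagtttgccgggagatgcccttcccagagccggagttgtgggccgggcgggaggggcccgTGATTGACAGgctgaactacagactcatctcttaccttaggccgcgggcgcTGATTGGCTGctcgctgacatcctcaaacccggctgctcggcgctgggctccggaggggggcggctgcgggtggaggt
The first match, at -129 to -120 from the start, fits both forms, and the second, at -78 to -69, fits the loose form. Read on both strands, the strict form occurs in 24.3% of all peaks and in 0.733% of the 300-base windows before 22374 protein-coding start sites, and the loose form in 46.3% and 5.72%. The 300-base windows of the other 7 paired genes hold neither form. A match describes letters and does not show binding at that site.

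Wnt3a, which is required in the tail bud for somite formation and supports ES cell self-renewal in culture, lies on the minus strand of chromosome 11 (chr11:59061535-59104254), and Wnt9a, known from joint formation, lies on the plus strand (chr11:59120430-59147054). They too are transcribed away from each other, with starts 16176 bp apart. Wnt3a had 56 wild type reads (0.692 RPKM) and, in the library labelled Prep1-/-, 27 reads (0.380 RPKM), giving a ratio of 0.549 (0.327 to 0.868). Wnt9a had 1004 and 596 reads, or 5.15 and 3.42 RPKM, a ratio of 0.664 (0.599 to 0.735). Both were lower, Wnt9a by the smallest step of the 7 genes. With the median of all genes set to a ratio of 1, Wnt9a stood at 0.701 and lost its call. Here the larger level belonged to the Wnt9 gene, with Wnt3a holding 11.8% of the RPKM of the pair in the wild type and 9.99% in the library labelled Prep1-/-, whereas at the Wnt3 pair the Wnt3 gene held nearly all of it.

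A second Prep1 peak lies between these genes (chr11:59107153-59107621), at 3.13 kb upstream of the start of Wnt3a and 13.0 kb upstream of the start of Wnt9a. Its fold enrichment is 12, a value that 22.1% of the peaks do not exceed and that lies below the median of 21 over the list. It holds neither decamer. After its sequence had been seen it was also searched for TGANTGACA, the first 9 letters of the strict form, which occur in 34.6% of peaks and in 1.83% of promoter windows. The 250 bases at its middle, chr11:59107263-59107512, are printed from the plus strand with the single match, which reads TGACTGACA on the minus strand, in capitals.
Wnt3a-Wnt9a peak: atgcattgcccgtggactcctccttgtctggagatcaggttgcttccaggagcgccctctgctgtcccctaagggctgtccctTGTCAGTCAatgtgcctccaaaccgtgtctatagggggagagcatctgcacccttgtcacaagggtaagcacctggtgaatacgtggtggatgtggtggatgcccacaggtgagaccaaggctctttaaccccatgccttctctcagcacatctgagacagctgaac

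Wnt6, expressed in surface ectoderm and other epithelia, and Wnt10a, which acts in tooth and hair follicle formation, lie head to tail on the plus strand of chromosome 1 (chr1:74818466-74831893 and chr1:74838090-74850753). The end of Wnt6 is 6196 bp before the start of Wnt10a, and the start sites are 19624 bp apart. Wnt6 had 314 wild type reads (5.20 RPKM) and, in the library labelled Prep1-/-, 82 reads (1.53 RPKM), giving a ratio of 0.295 (0.226 to 0.373). Wnt10a had 117 and 33 reads, or 2.07 and 0.667 RPKM, a ratio of 0.322 (0.208 to 0.468). Both were lower by similar steps, and both had a wild type level above 1 RPKM, so that this pair was the most evenly expressed of the 4. The nearest Prep1 peak on the list (chr1:74900779-74902089, fold enrichment 82) lies over Cdk5r2, at 63.3 kb from the start of Wnt10a and 83.0 kb from that of Wnt6.

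Wnt1, a midbrain organizer signal, and Wnt10b, known for holding back fat cell formation, lie on chromosome 15 (chr15:98620288-98624268 on the plus strand and chr15:98602184-98608581 on the minus strand) and are transcribed away from each other with starts 11707 bp apart. Wnt1 had 2 wild type reads (0.0366 RPKM) and, in the library labelled Prep1-/-, 4 reads (0.0683 RPKM), giving a ratio of 1.86 with an interval from 0.320 to 24.7 and thus no direction. Wnt10b had 72 and 30 reads, or 1.04 and 0.495 RPKM, a ratio of 0.475 (0.294 to 0.723), and was lower. No Prep1 peak was listed within 100 kb of either start. The nearest (chr15:98748253-98749040, fold enrichment 73), over Lmbr1l, is 128 kb from the start of Wnt1 and 140 kb from that of Wnt10b. Within 20 kb of the start, a peak was listed for 3 of the 8 paired genes, namely Wnt3, Wnt3a and Wnt9a, compared with 17.1% of 22380 protein-coding starts, and Wnt3a and Wnt9a share theirs. The members with no peak listed within 20 kb were Wnt9b, Wnt6, Wnt10a, Wnt1 and Wnt10b.

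The paired genes did not share a level. Wnt3 exceeded Wnt9b by 40.9-fold (27.7 to 69.6) in the wild type and by 44.4-fold (21.0 to 205) in the library labelled Prep1-/-. The Wnt3a level was 0.134 of that of Wnt9a (0.0990 to 0.173) in the wild type and 0.111 (0.0701 to 0.158) in the library labelled Prep1-/-. Wnt6 exceeded Wnt10a by 2.51-fold (2.04 to 3.15) and 2.30-fold (1.54 to 3.62). The Wnt1 level was 0.0351 of that of Wnt10b in the wild type, on 2 reads of Wnt1, and 0.138 (0.0292 to 0.323) in the library labelled Prep1-/-. None of these 8 intervals reached 1. Such gaps are common between adjacent genes, since over 10688 adjacent protein-coding pairs with at least 20 reads for each gene the median gap was 2.27 on the log2 scale of wild type RPKM. A gap at least as wide as that of the Wnt pair was found for 13.8% of these pairs in the case of Wnt3 and Wnt9b, 40.2% for Wnt3a and Wnt9a, 69.2% for Wnt6 and Wnt10a, and 17.8% for Wnt1 and Wnt10b. Wnt1, with 6 reads, is below the minimum for these pairs, so its pair is not one of them.

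In order of level, the wild type library had Wnt3 first, followed by Wnt6, Wnt9a, Wnt10a, Wnt10b, Wnt3a, Wnt9b and Wnt1, and the only neighbours in that order that did not differ beyond counting error were Wnt6 and Wnt9a, at a level ratio of 1.01 (0.884 to 1.14). In the library labelled Prep1-/- the order began with Wnt9a, at 1.93 times (1.62 to 2.35) the level of Wnt3, which led in the wild type by deposited RPKM. Wnt3 and Wnt6 were then not told apart by counting error (1.16, 0.879 to 1.54). Nor were Wnt10a, Wnt10b and Wnt3a in turn, with level ratios of 1.35 (0.799 to 2.29) and 1.30 (0.751 to 2.29). The order ended with Wnt1 and Wnt9b at 4 reads each. Both orders depend on the gene length behind the RPKM. The longest annotated transcripts are 3320 bp for Wnt9a, 3076 bp for Wnt3 and 2068 bp for Wnt6. By those lengths Wnt9a would come first in the wild type as well, and would not be level with Wnt6.

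The KO/WT ratios of neighbours did not differ beyond counting error. The ratio of one gene divided by the ratio of its neighbour is free of gene length and of library scaling, and was computed from the 4 read counts with an exact conditional interval. It was 1.29 (0.425 to 5.24) for Wnt3 over Wnt9b, 0.812 (0.488 to 1.32) for Wnt3a over Wnt9a, and 0.926 (0.576 to 1.51) for Wnt6 over Wnt10a. With 0.1 added to RPKM, Wnt9b, whose level is near that addition, stood at a ratio of 0.544 and Wnt3 over Wnt9b turned to 0.527. For Wnt1 over Wnt10b the value was 4.72, with an interval from 0.638 to 54.8 set by the 6 reads of Wnt1. The intervals of all 4 neighbouring pairs thus included 1, which does not show that the genes changed alike, because the pairs with Wnt9b and Wnt1 would leave room for differences of several fold.

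Relatives of the same subfamily were set beside neighbours by position, and Wnt6 was set beside Wnt1, which holds the same place next to a Wnt10 gene but is no closer to Wnt6 in sequence than some other combinations of the 8 genes are. Wnt3 over Wnt3a gave 0.509 (0.304 to 0.870) and Wnt9a over Wnt9b gave 3.11 (1.04 to 12.5). Wnt6 over Wnt1 gave 0.131 (0.0117 to 0.935) on the few reads of Wnt1, and Wnt10a over Wnt10b gave 0.678 (0.366 to 1.26). Of these 4 combinations, 1 interval included 1, compared with 4 of 4 for neighbours, and the median absolute difference of the log2 ratios was 1.19 for these and 0.20 for neighbours. Without Wnt1, 1 of 3 intervals for relatives and 3 of 3 for neighbours included 1, and the medians were 0.99 and 0.13. The neighbour medians depend on the read that the authors added to each count. Without that read the differences were 0.36 for Wnt3 and Wnt9b, 0.30 for Wnt3a and Wnt9a, and 0.11 for Wnt6 and Wnt10a. The log2 differences for relatives were not taken without it. The divided ratios with intervals, for neighbours and relatives alike, come from the read counts without that read. Neighbours and relatives use the same 8 genes, and the contrast between them was not tested. Sequences were compared on 1 transcript per gene, that with the longest coding sequence. The coding sequences were 70.4% to 78.0% identical for the relatives of the same subfamily and 65.4% for Wnt6 and Wnt1. They were 61.6% to 63.7% identical for the neighbours and 61.2% to 65.7% for the other 20 combinations. The longest exact stretch shared between these 8 transcripts was 22 bp, shorter than the 50-base reads. Other transcripts of the genes were not compared.

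**Figure D2:**
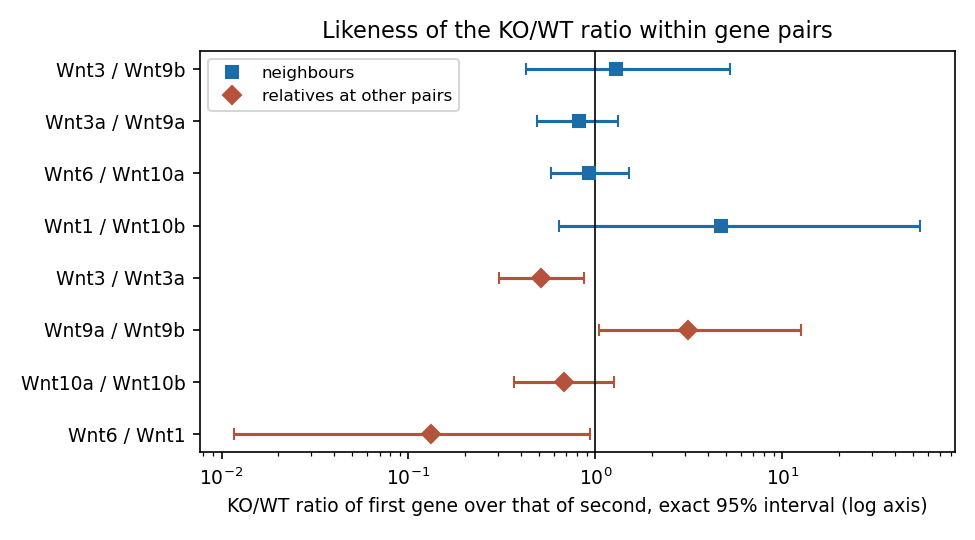
KO/WT ratio of the first gene divided by that of the second on a log axis, with exact 95% intervals, for the 4 neighbouring pairs (squares) and for 3 pairs of relatives and Wnt6 over Wnt1 (diamonds). All 4 squares have intervals that cross 1, and of the diamonds the interval of Wnt10a over Wnt10b crosses it.

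Some pairs differed from each other in their KO/WT ratio beyond counting error. With the reads of each pair added up, a step chosen after the values had been seen, the KO/WT ratio was 0.272 (0.226 to 0.326) at Wnt3 and Wnt9b and 0.298 (0.241 to 0.367) at Wnt6 and Wnt10a. It was 0.514 (0.332 to 0.781) at Wnt1 and Wnt10b and 0.657 (0.594 to 0.726) at Wnt3a and Wnt9a. The sums are governed by the more abundant gene of each pair. The ratio of the Wnt3 pair was 0.414 (0.335 to 0.511) of that of the Wnt3a pair, although both lie on chromosome 11. The Wnt6 pair differed from the Wnt3a pair in the same way (2.20 for Wnt3a-Wnt9a over Wnt6-Wnt10a, 1.75 to 2.79), while the Wnt3 and Wnt6 pairs could not be told apart (0.912, 0.688 to 1.21), nor could the Wnt3a and Wnt1 pairs (1.28, 0.830 to 2.01). The Wnt1 pair lay above the Wnt3 pair (0.530 for Wnt3-Wnt9b over Wnt1-Wnt10b, 0.334 to 0.854) and above the Wnt6 pair (0.581, 0.361 to 0.947).

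Closeness of the ratio is common between adjacent genes in these data. Over the 10688 adjacent pairs the absolute difference of the log2 ratios had a median of 0.33 and quartiles of 0.15 and 0.64, and over the 2847 divergent pairs among them the median was 0.30. The difference was 0.12 for Wnt3 and Wnt9b, 0.13 for Wnt6 and Wnt10a, 0.27 for Wnt3a and Wnt9a, and 1.97 for Wnt1 and Wnt10b. Of all adjacent pairs, 19.8%, 21.8%, 43.0% and 98.0% respectively differed by no more than that, so that no Wnt pair stood apart from the distribution by its closeness. Wnt1 with Wnt10b is set beside these pairs without being one of them, since Wnt1 had 6 reads. For Wnt3 and Wnt9b the value rests on the read that the authors added to each count, since without it, a setting added after the data were seen, the difference was 0.36, which 53.0% of 10676 adjacent pairs with a median of 0.33 did not exceed. The other pairs then differed by 0.30 for Wnt3a and Wnt9a, 0.11 for Wnt6 and Wnt10a, and 2.26 for Wnt1 and Wnt10b. Both genes were lower in 318 adjacent pairs (2.98%), and Wnt3 with Wnt9b, Wnt3a with Wnt9a and Wnt6 with Wnt10a are 3 of them. The divergent arrangement of 3 Wnt pairs is that of 24.3% of 22358 adjacent protein-coding pairs, and their start sites lie near the median distance of 18549 bp for divergent pairs.

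**Figure D3:**
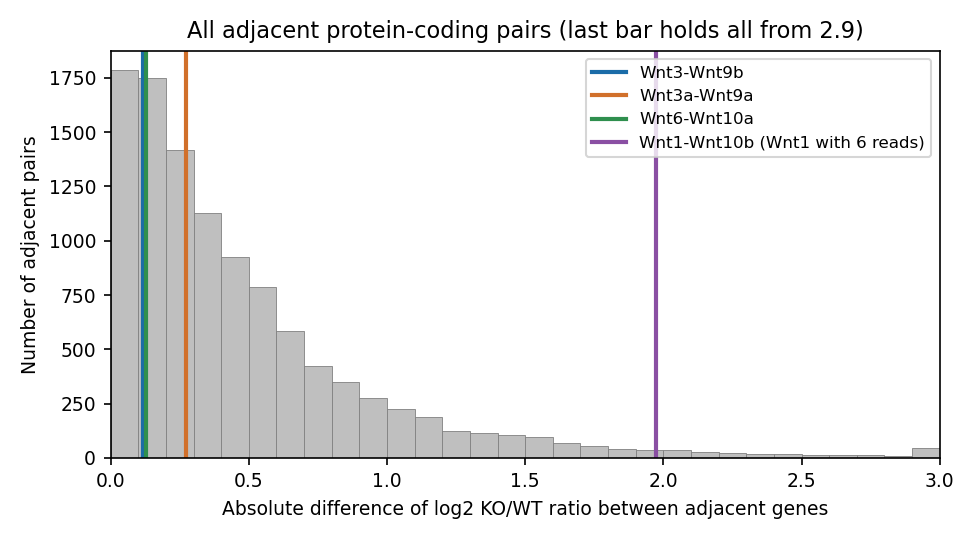
Histogram of the absolute difference of log2 KO/WT ratios between the genes of 10688 adjacent protein-coding pairs with at least 20 reads for each gene, with vertical lines at the 4 Wnt pairs. The lines of Wnt3-Wnt9b (0.12), Wnt6-Wnt10a (0.13) and Wnt3a-Wnt9a (0.27) stand left of the median of 0.33, and that of Wnt1-Wnt10b, with 6 reads for Wnt1, stands at 1.97, while without the read added by the authors Wnt3-Wnt9b would lie at 0.36, right of the median.

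Within the Wnt family, the neighbour on the chromosome was not always the gene with the nearest KO/WT ratio. Among 15 Wnt genes with at least 20 reads, pairs of any kind differed by a median of 0.59 on the log2 scale. Wnt9b was nearest to Wnt3, and Wnt10a to Wnt6. Wnt3 and Wnt6 were each nearest to the other, 0.10 apart although they are on different chromosomes, with their neighbours next. For Wnt9b, with 4 reads in the library labelled Prep1-/-, that place depends on the read that the authors added. Without it the ratios were 0.213 for Wnt9b, 0.274 for Wnt3, 0.292 for Wnt6 and 0.315 for Wnt10a, and Wnt10a lay closer to Wnt3 than Wnt9b did. Wnt3a was nearest to Wnt7a (0.03 apart) and Wnt9a to Wnt7b (0.06 apart), and among 14 other Wnt genes Wnt9a ranked 7 for Wnt3a and Wnt3a ranked 6 for Wnt9a. Wnt10b was nearest to Wnt3a, 0.21 apart. Of the 11 Wnt genes outside the pairs, 8 had at least 20 reads, and 6 of those were lower, with a median ratio of 0.592 over the 8. Wnt8a, another early streak ligand, had the lowest of these ratios, at 0.371 (0.272 to 0.490). Wnt4, Wnt5b, Wnt7a, Wnt7b and Wnt11 lay between 0.559 and 0.637, and Wnt2b (0.879, 0.659 to 1.16) and Wnt5a (0.843, 0.572 to 1.22) had intervals that included 1. Wnt2 (4 and 0 reads), Wnt8b (0 and 4 reads) and Wnt16 (13 and 6 reads) were under the minimum. Of the 5 ratios under 0.4 among the Wnt genes with at least 20 reads, Wnt9b, Wnt3, Wnt6 and Wnt10a belong to the Wnt3 and Wnt6 pairs.

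**Figure D4:**
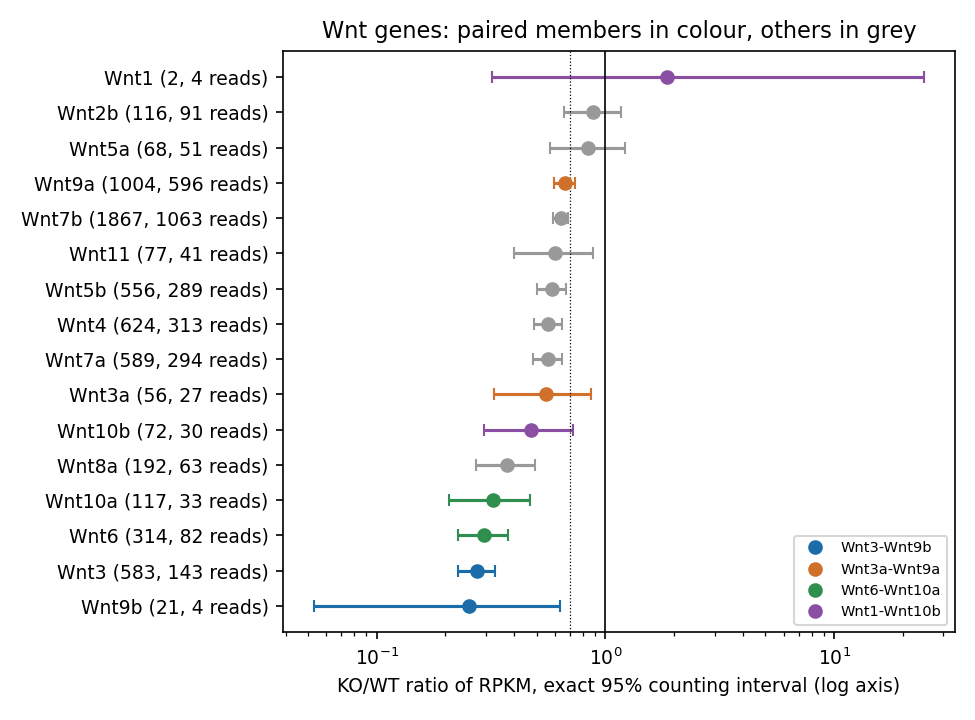
KO/WT ratio of RPKM on a log axis with exact 95% counting intervals for 15 Wnt genes with at least 20 reads and for Wnt1, in order of the ratio, with the read counts of the wild type and the Prep1-/- library beside each name. The solid line marks 1 and the dotted line 0.7, and the genes of the Wnt3 and Wnt6 pairs take the 4 lowest places, from 0.254 to 0.322.

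The genes beside the pairs were examined in the same way. Of the 16 protein-coding genes that flank the pairs, with the 2 nearest on each side taken, 15 were analysed here, 11 had at least 20 reads, and 2 of those were lower and none higher. At the Wnt3 pair, Nsf, a vesicle fusion ATPase gene that ends 3.83 kb from Wnt3, had 3317 and 3414 reads and a ratio of 1.15 (1.10 to 1.21), and Gosr2 on the Wnt9b side had a ratio of 1.02 (0.977 to 1.07). At the Wnt3a pair, Arf1 stood at 0.815 (0.764 to 0.869) and Snap47 at 0.959 (0.914 to 1.01). At the Wnt1 pair, Arf3 stood at 1.01 (0.974 to 1.05) and Fkbp11 at 0.740 (0.647 to 0.843). At Wnt6 and Wnt10a, both of the flanking genes with at least 20 reads were lower, 1 on each side. They are Cyp27a1, a sterol hydroxylase gene, with 98 and 38 reads and a ratio of 0.440 (0.290 to 0.637), and the transcription factor gene Fev, with 18 and 6 reads and a ratio of 0.412 (0.121 to 0.980). Prkag3, between Cyp27a1 and Wnt6, had 7 and 1 reads and gave no call. Over all genes with at least 20 reads, the median log2 ratio was 0.05 on chromosome 1, 0.03 on chromosome 11 and -0.13 on chromosome 15.

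**Figure D5:**
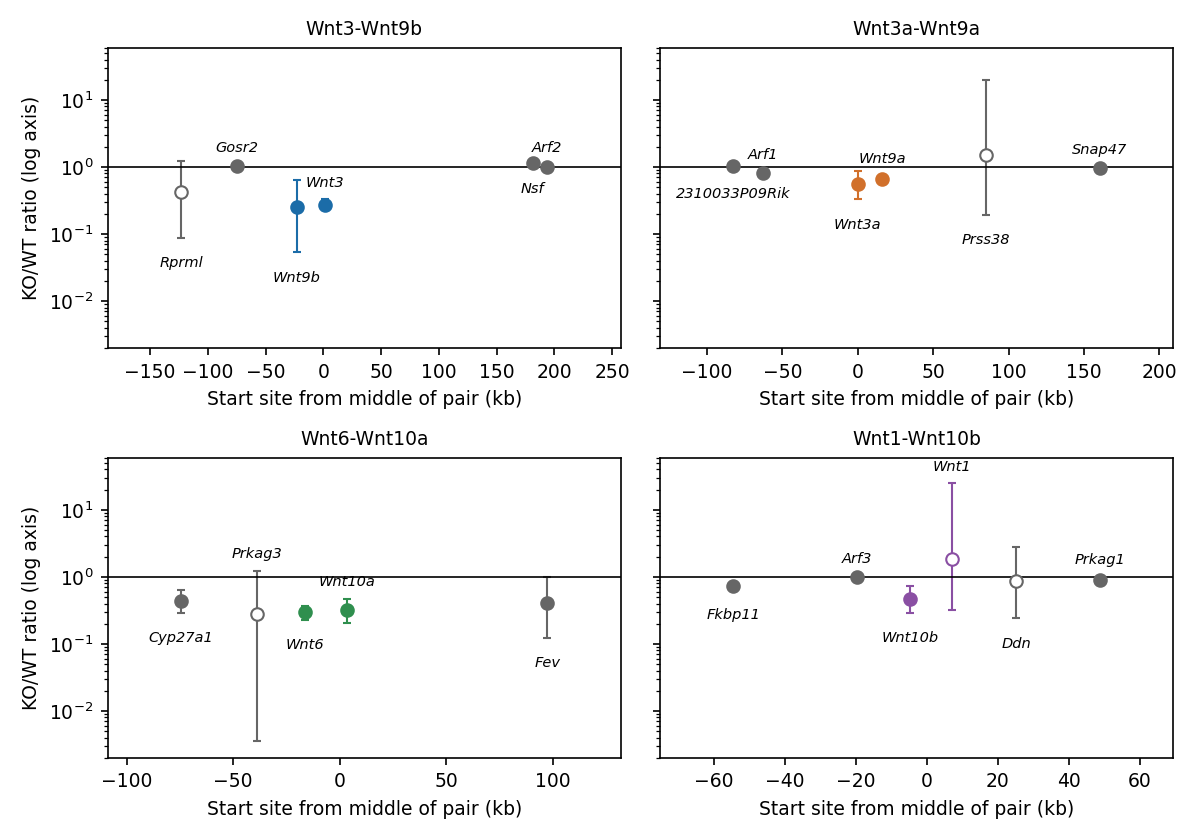
KO/WT ratio on a log axis, with exact 95% counting intervals, against the distance of each start site from the middle of the pair in kb, for the paired Wnt genes in colour and the flanking protein-coding genes in grey. Open points have fewer than 20 reads, and at the Wnt3, Wnt3a and Wnt1 pairs the filled grey points lie between 0.740 and 1.15, above the filled coloured points.

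Other parts of the Wnt pathway are given for comparison, from lists of known components. Of 15 receptor and co-receptor genes with at least 20 reads, 3 were lower (Fzd2 at 0.652, Fzd6 at 0.661 and Fzd10 at 0.648) and 1 was higher (Fzd5 at 1.65), with a median ratio of 0.868. Of the genes for making, releasing and removing active ligand, Porcn, the acyltransferase that lipidates Wnt proteins, stood at 1.497 without passing the limit, Wls, the carrier that takes them to the cell surface, at 0.810, and Notum, the esterase that strips the lipid, at 3.002 and was higher. Secreted antagonists gave 1 lower (Dkk1, 19 and 8 reads, with an interval of 0.178 to 1.13) and 1 higher (Sfrp1, 1.55) of 6 with at least 20 reads. Among 12 β-catenin target genes 7 were lower and 1, Lgr5, was higher, with a median of 0.623. Lgr5 had 19 and 29 reads, and its interval of 0.925 to 3.22 included 1. The lower ones included the feedback regulators Axin2 (0.458), Rnf43 (0.504) and Nkd1 (0.620), while Znrf3, a relative of Rnf43 with the same role, stood at 1.31 (1.23 to 1.40) and Ccnd1 (0.957), Lef1 (0.970) and Tcf7 (1.03) were near 1.

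Markers of cell types that can arise in ES cultures were counted by the same rule, beside 15.2% lower and 6.99% higher over all genes. Of 8 primitive streak markers, all with at least 20 reads, 6 were lower and none higher. T, which was also counted among the β-catenin target genes, had 1091 and 242 reads, a ratio of 0.249. Mixl1 had 163 and 43 reads, and Eomes had 786 and 354 reads, while Nodal stood at 1.05. The summed level of this list was 71.2 RPKM in the wild type and 47.8 RPKM in the library labelled Prep1-/-. Nodal alone made up 35.8 and 37.4 RPKM of these sums, so they understate the fall of the lower markers. Of 8 primitive endoderm markers 7 were lower, among them Gata4, Gata6 and Sox17, and none passed the limit for higher. The other, Sox7, went the opposite way at 1.39, with an interval of 1.09 to 1.79. The summed level of the list was 11.8 and 6.49 RPKM. The 8 pluripotency markers gave 0 lower and 1 higher (Klf4, 1.58), with a summed level of 1201 and 1469 RPKM. Feeder fibroblast markers gave 1 lower and 3 higher of 7, with 26.2 and 31.3 RPKM in all, and Lum at 0 and 2 reads. Of the 3 higher, Col3a1 (0.908 to 2.62) and Dcn (0.630 to 4.73) had intervals that included 1, while that of Postn (2.54 to 18.0) did not. Neural markers gave 1 lower and 1 higher of 5, with 62.9 and 55.7 RPKM. In RNA from whole cultures, fewer cells that express a Wnt gene and less of its RNA per cell cannot be told apart, and the part of these markers in the lower Wnt levels was not tested.

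In the 300 bases before their start sites, 7 of the 8 paired genes had a GC content above the upper quartile of protein-coding starts, at 64.3% to 83.3% compared with a median of 53.3% and quartiles of 45.7% and 61.3%. Wnt10a, at 58.3%, lay between the quartiles. CpG counts ran from 4 at Wnt10a to 51 at Wnt9a, with a median of 9 and quartiles of 3 and 20 over all windows. By pair, Wnt3 and Wnt9b had 24 CpGs each, and Wnt3a and Wnt9a had 42 and 51. Wnt6 and Wnt10a had 30 and 4, and Wnt1 and Wnt10b had 26 and 16. A relation of these counts to level was not tested.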

How the data were processed

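The authors purified polyA RNA from wild type and Prep1 KO2 ES cells, sequenced paired-end reads of 50 bases and assigned them to Ensembl genes on mm9 with RSEM, analysed with DESeq. Program versions are not given in the sources used here. Per gene, the authors deposited a raw read count. The deposited RPKM was computed from the count plus 1, since its KO/WT ratio was 1.12 times the ratio of the counts plus 1 for every gene with finite values (85 genes are listed as Inf). Prep1 ChIP-seq reads were aligned with BWA and peaks called with MACS against input on 1 library. The deposited score of each peak is the rounded fold enrichment, identified from the peak table of the study.

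KO/WT ratios are those of RPKM. Exact Clopper-Pearson intervals (95%) came from the reads, scaled by 1.12, and conditional odds ratios from pairs of genes. Each genotype has 1 library, so no test of genotype was run and no p-value is given. The sums of 29596294 and 25717811 reads limit what genes with few reads can show. Calls needed 20 reads in both libraries together and a ratio under 0.7 or over 1.5. Positions are on mm9 with GENCODE M1, and adjacent genes are protein-coding genes next to each other there. Wls is filed as Gpr177 and was matched by gene ID. The members, lists and comparisons were chosen with earlier results of these data known. All 8 paired genes and the 11 other Wnt genes are named, the flanking genes are the 2 nearest on each side, and members of other lists are given by counts with examples. Sequences were read from the mm9 genome.

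Alternatives were other scalings, 0.1 or 1 added to RPKM, other read filters and limits, the RPKM filter of 1, gene length from the longest transcript, other sets of adjacent genes and other peak distances. Ratios without the added read, also for adjacent genes, values without Wnt1, summed pairs and the 9-letter motif were added after the data were seen. The calls and intervals were checked on simulated counts. Python 3.11.15, numpy 2.4.6, pandas 2.3.3, scipy 1.17.1, Biopython 1.88 and matplotlib 3.10.9 were used.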

Additional observations from a re-analysis of the deposited data

How the results depend on the processing

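Under the alternatives 99 values stayed within their counting error or count limit and 16 moved, and no value whose interval lay on 1 side of 1 changed direction. With 1 added to RPKM, 3 paired genes were lower in place of 7. The ratios were 0.373 for Wnt3, 0.408 for Wnt6, 0.543 for Wnt10a, 0.719 for Wnt9a, 0.732 for Wnt10b, 0.816 for Wnt3a and 0.899 for Wnt9b. An added 1 exceeds the levels of Wnt9b and Wnt3a in either library, and that of Wnt10b in the library labelled Prep1-/-. It does not exceed those of Wnt9a, whose step was the smallest. Without the read minimum 1 paired gene, Wnt1, was higher. With limits of 0.5 and 2 the paired genes gave 5 lower in place of 7, and the other Wnt genes 1 in place of 6. At a minimum of 100 reads 5 paired genes and 6 other Wnt genes were lower, and with the RPKM filter of 1 there were 5 of each. With 0.1 added, Wnt3 exceeded Wnt9b by 25.4-fold in the wild type and 13.4-fold in the library labelled Prep1-/-, the ratio of their KO/WT ratios went from 1.29 to 0.527, within its interval but across 1, and the wild type level of Wnt1 was 0.120 of that of Wnt10b. With the longest annotated transcript as length, Wnt3a stood at 0.0671 and 0.0545 of the level of Wnt9a in the wild type and Prep1-/- libraries, and Wnt6 at 3.20 times that of Wnt10a in the wild type. Within 100 kb 5 peaks were listed at the pairs in place of 2 within 20 kb, and 1 of the 2 had a fold enrichment above the median. No paired analysis was possible because each genotype has 1 library, and none could be left out. Genes with few reads, Wnt9b and Wnt1 above all, were limited by depth.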
